A study of Mus musculus with 2 samples.

Results

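The genes described here are Mir143 and Mir145a, which lie beside each other at 1 locus, Mir199a-2 and Mir214, which lie in 1 host transcript, and Mir199a-1 and Mir199b, the other 2 genes of the miR-199 family. They were found by matching the gene identifiers of the deposited tables to these 6 symbols in GENCODE M21, and make up 6 of the 2202 microRNA genes counted. MicroRNA sequencing was done on total RNA of whole adrenal gland of wild-type C57BL/6J mice, with no treatment named and with age unknown. There is 1 group of 2 libraries, numbered as biological replicates 1 and 2, from separate tissue samples that carry the same donor identifier. One label calls the mice female while the sex field was not collected. The p-values set the difference between these 2 libraries against counting error alone and hold no measure of the spread between samples. No label says that the samples came from separate animals, so a difference between the libraries may be technical.

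MicroRNAs are short RNAs cut from a hairpin in a longer transcript, and they repress messenger RNAs that pair with the seed, the bases near their 5′ end. The hairpins of miR-143 and miR-145 come from a shared transcript that is abundant in smooth muscle cells and pericytes, the mural cells of vessels, where miR-145 is known for holding smooth muscle in its contractile state. The hairpins of Mir199a-2 and Mir214 are cut from Dnm3os, a long noncoding RNA that runs antisense to the dynamin gene Dnm3 and is known from mesenchymal cells and fibroblasts, also in tissue fibrosis. The tables hold microRNA genes and no messenger RNA, so the presence of these cell types was not checked with other markers. In whole tissue, fewer cells of a type and less RNA per cell cannot be told apart.

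The sequences of the miR-199 and miR-214 products are shown first, because they bear on what a count at each locus can hold. RefSeq (GRCm38.p6, the mm10 coordinates) had entries for 4 of the 6 genes: Mir199a-1, Mir199a-2, Mir199b and Mir214. Mir143 and Mir145a had none, so copies of their products were not looked for. The mature products listed are given 5′ to 3′ with the seed, bases 2 to 8, in capitals.
miR-199a-5p: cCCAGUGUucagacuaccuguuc
miR-199a-3p and miR-199b-3p: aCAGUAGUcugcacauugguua
miR-214-5p: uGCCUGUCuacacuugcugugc
miR-214-3p: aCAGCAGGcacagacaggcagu
miR-761: gCAGCAGGgugaaacugacaca
The 4 products carry 4 different seeds. No gene outside the family shared a seed with a miR-199 product in the table, and Mir761 shared that of miR-214-3p, which is why its product is shown. Mir761 had 0 counts in both libraries, which allows at most 3 counts in each, or 0.328 and 0.457 CPM (counts per 1000000 reads counted on the strand of microRNA genes), for counting error only.

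The hairpins show where the family members can and cannot be told apart. The mature products listed by RefSeq are in capitals.
Mir199a-1: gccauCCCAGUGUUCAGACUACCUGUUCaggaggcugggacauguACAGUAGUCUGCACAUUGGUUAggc
Mir199a-2: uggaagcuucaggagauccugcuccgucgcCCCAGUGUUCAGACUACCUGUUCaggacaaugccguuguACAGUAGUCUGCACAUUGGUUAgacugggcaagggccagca
Mir199b: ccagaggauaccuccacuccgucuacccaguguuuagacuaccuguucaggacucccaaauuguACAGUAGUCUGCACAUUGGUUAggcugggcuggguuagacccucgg
Mir214: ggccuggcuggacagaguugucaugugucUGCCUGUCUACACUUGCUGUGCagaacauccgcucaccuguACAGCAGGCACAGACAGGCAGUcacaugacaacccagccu
The 3p product stood in all 3 miR-199 hairpins, and miR-199a-5p in 2 of them. In the Mir199b hairpin, bases 26 to 48 differ from miR-199a-5p by C10U alone, counted from 1 at the 5′ end of miR-199a-5p. Around the 3p product, Mir199a-1 and Mir199a-2 shared an unbroken run of 26 bases, Mir199a-2 and Mir199b 27 bases, and Mir199a-1 and Mir199b 28 bases. Around miR-199a-5p, Mir199a-1 and Mir199a-2 shared 27 bases. A read inside such a run has the same sequence at each of those loci. Both miR-214 products stood in the Mir214 hairpin alone, and none of its 89 windows of 22 bases was found in another hairpin of the table, against 12 of 89 windows for Mir199a-2, 13 of 49 for Mir199a-1 and 8 of 89 for Mir199b.

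All 3 miR-199 genes lie opposite an intron of a dynamin gene, the family of GTPases that pinch vesicles off membranes. Mir199a-2 (ENSMUSG00000070126.1) is at chr1:162217814-162217923 on the plus strand and Mir214 (ENSMUSG00000065516.1) at chr1:162223368-162223477, 5444 bases further on. Both overlap an exon of Dnm3os on their own strand and an intron of Dnm3 on the other. Mir199b (ENSMUSG00000092807.1), at chr2:32318460-32318569 on the plus strand, lies opposite an intron of Dnm1, and Mir199a-1 (ENSMUSG00000065547.1), at chr9:21496495-21496564 on the minus strand, opposite an intron of Dnm2. Coordinates are mm10, and the GENCODE and RefSeq positions of these 4 hairpins were the same. No other microRNA gene of the tables overlapped any of them.

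Mir143 had the most counts of the 6 genes. It had 144005 counts in replicate 1 and 83447 in replicate 2, which is 15759 CPM (95% Clopper-Pearson interval 15678 to 15840) and 12701 CPM (12615 to 12786). The libraries held 9137907 and 6570375 counted reads in all. Its mean was 14230 ± 2163 CPM (SD, n = 2), rank 18 of 2202 genes. Replicate 1 was the higher library and the counting intervals did not overlap. The genes next to it in rank were Mirlet7e at 14885 ± 1103 CPM and Mir652 at 13536 ± 1103 CPM (SD, n = 2), and both means lay within 1 SD of that of Mir143. Mir143 (ENSMUSG00000065445.3) is at chr18:61649196-61649258 on the minus strand of mm10 and overlaps no other annotated gene. The long noncoding RNA gene Carmn, on the same strand, ends 366 bases away.

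Mir145a, the partner of Mir143, had 8931 counts in replicate 1 and 7785 in replicate 2, or 977 CPM (957 to 998) and 1185 CPM (1159 to 1211). Here replicate 2 was the higher library, opposite to Mir143, again with intervals that did not overlap. The mean was 1081 ± 147 CPM (SD, n = 2), rank 73. Its neighbours in rank, Mir92-1 (1 product of which also stands at another gene) at 1083 ± 184 CPM and Mir872 at 1020 ± 128 CPM, did not differ from it beyond this spread. Mir145a (ENSMUSG00000065592.2) is at chr18:61647825-61647894 on the minus strand, 1301 bases from Mir143, and overlaps no other annotated gene.

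Mir214 was the third gene of this set with a mean above 1000 CPM. It had 19769 counts in replicate 1 and 7440 in replicate 2, or 2163 CPM (2133 to 2194) and 1132 CPM (1107 to 1158). Replicate 1 was higher by 1.91-fold on the CPM scale, and the SD was large beside the mean of 1648 ± 729 CPM (n = 2). By rank Mir214 stood at 48 in replicate 1 and at 74 in replicate 2. The genes next to it by mean were Mir615, from the Hoxc cluster, at 1762 ± 201 CPM and Mir676 at 1645 ± 495 CPM, both within 1 SD of Mir214.

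The 3 miR-199 genes had few counts. Mir199a-2, from the same transcript as Mir214, had 74 and 61 counts in replicates 1 and 2, or 8.10 CPM (6.36 to 10.2) and 9.28 CPM (7.10 to 11.9). Mir199b had 50 and 47 counts, or 5.47 CPM (4.06 to 7.21) and 7.15 CPM (5.26 to 9.51). Mir199a-1 had 2 and 1 counts, or 0.219 CPM (0.0265 to 0.791) and 0.152 CPM (0.00385 to 0.848). For all 3 genes the intervals of the libraries overlapped. These are levels of reads that were placed at 1 locus: reads that aligned to more than 1 place, 35.9% of replicate 1 and 36.0% of replicate 2, stand in a row of their own, so the tables give no total for miR-199-3p or miR-199a-5p, and the order of these 3 genes below the others is an order of uniquely placed reads.

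**Figure D1:**
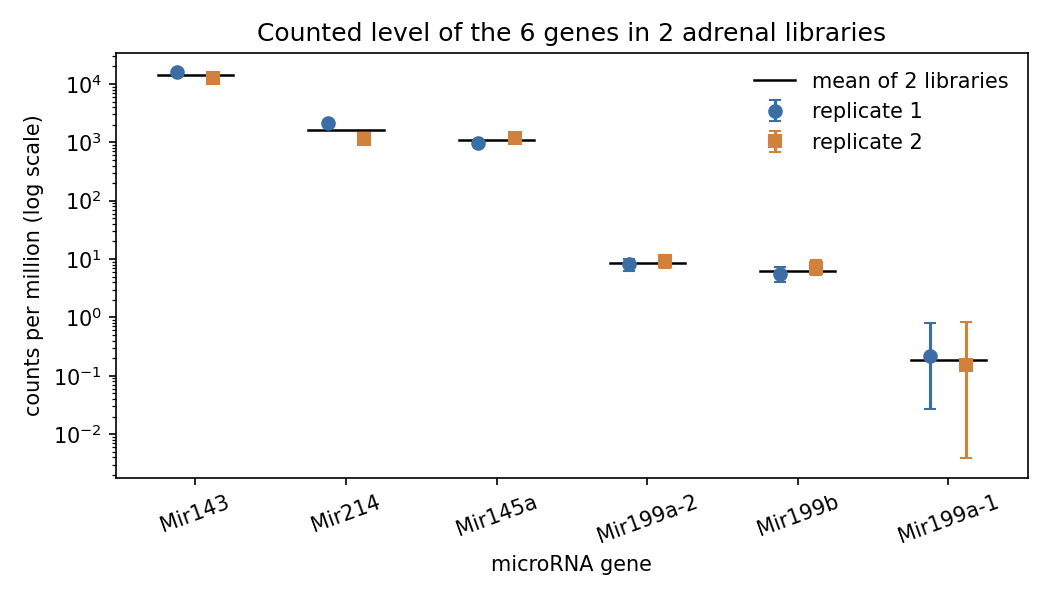
Level of each gene in CPM (log scale) by gene, with replicate 1 as circles, replicate 2 as squares, 95% counting intervals as bars and the mean of the 2 libraries as a line. Mir143, Mir214 and Mir145a lie between 977 and 15759 CPM, Mir199a-2 and Mir199b between 5.47 and 9.28 CPM, and Mir199a-1 below 1 CPM.

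Ordered by mean CPM, the genes ran from Mir143 through Mir214, Mir145a, Mir199a-2 and Mir199b to Mir199a-1. Mir143 stood above Mir214 in both libraries, by far more than the spread of either. Mir214 and Mir145a changed places: Mir214 had 2.21 times the counts of Mir145a in replicate 1 (95% counting interval 2.16 to 2.27) and 0.956 times in replicate 2 (0.926 to 0.987). Their order therefore depends on the library. Mir199a-2 was above Mir199b by 1.48 times (1.02 to 2.16) and 1.30 times (0.873 to 1.94), and their order was not resolved in replicate 2. Each count is a whole short read, so levels were not divided by hairpin length. Per base of annotated hairpin, 110 for Mir214 and 70 for Mir145a, the ratios of Mir214 to Mir145a were 1.41 and 0.608, with the same change of order.

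Together the 6 genes held 1.89% of the counted reads in replicate 1 (1.88 to 1.90) and 1.50% in replicate 2 (1.49 to 1.51). Mir143 alone made up 83.3% and 84.5% of this sum. Mir214 made up 11.4% of the sum in replicate 1 and 7.53% in replicate 2, and Mir145a 5.17% and 7.88%. The miR-199 genes came to 0.0729% and 0.110% of it. The summed level of the list thus follows Mir143 and carries almost nothing of the miR-199 genes.

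Low counts were common among genes with every listed product also at another gene and among those with no product elsewhere. They were less common among those with only some. Copies were looked for among the 1005 hairpins listed by RefSeq only, so a copy outside them would be missed. Of the 1018 counted genes with a mature entry in the table, matched by symbol, 42 had every listed product also at another gene, among them Mir199a-1, Mir199a-2 and Mir199b. Of those 42 genes, 6 (14.3%) reached 10 counts in each library, and 2 of the 6 were Mir199a-2 and Mir199b. Among the 920 genes with no product elsewhere, which include Mir214, 310 (33.7%) reached 10 counts, and 65 reached a mean of 1000 CPM. In the group with every product elsewhere 1 gene did, Mirlet7c-2 at 1831 CPM. The 56 genes with some products elsewhere do not follow this order, as 41 of them (73.2%) reached 10 counts. Median counts in replicates 1 and 2 were 0 and 0 with every product elsewhere, and 3 and 3 with no product elsewhere. These are descriptions of the classes, and the families in them differ in more than the presence of copies.

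**Figure D2:**
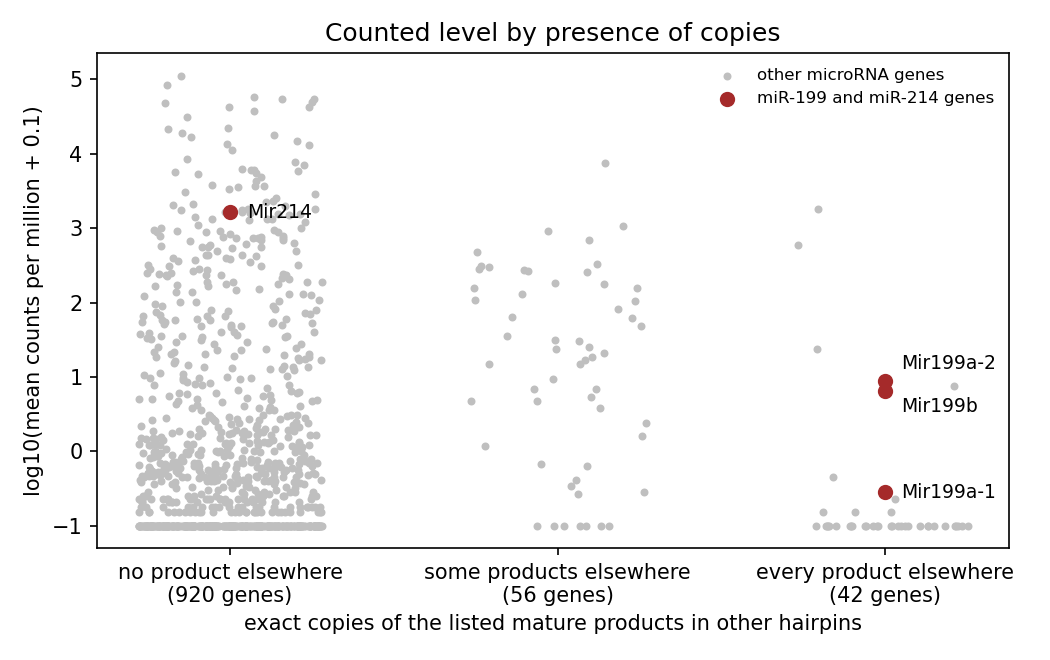
Mean CPM of the 2 libraries, as log10(mean + 0.1), for microRNA genes grouped by whether their listed mature products also stand at another gene, 1 point per gene, with the miR-199 and miR-214 genes in red. Mir214 lies at 1648 CPM among the 920 genes with no product elsewhere, and the 3 miR-199 genes lie at or below 8.69 CPM among the 42 genes with every product elsewhere. Mir199b has 1 listed product.

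The 2 libraries were then compared, to see by how much these genes vary between samples of 1 tissue. It compares those libraries, not conditions, and its error is counting error alone. Scaled by TMM, a method that sets library sizes from the bulk of the genes, Mir143 was 1.33-fold higher in replicate 1 (log2 ratio of replicate 2 over replicate 1 -0.41, 95% counting interval -0.43 to -0.40). Mir214 was 2.05-fold higher in replicate 1 (log2 ratio -1.04, interval -1.08 to -0.998). For both, the adjusted p of the exact binomial test was smaller than double precision can hold. Mir145a was 1.13-fold higher in replicate 2 (log2 ratio 0.17, interval 0.13 to 0.22, exact binomial adjusted p = 2.39e-14). Mir199a-2, with a log2 ratio of 0.10 (interval -0.42 to 0.60, exact binomial adjusted p = 0.828), and Mir199b, with 0.28 (-0.32 to 0.89, exact binomial adjusted p = 0.466), did not pass. At their depth a difference of the size of that of Mir145a could not have been resolved. Mir199a-1 had too few counts for the test.

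In all, 3 of the 5 tested genes were called, where 239 of all 426 tested genes were (56.1%). Of the genes called, 2 were higher in replicate 1, a direction called in 30.3% of tested genes, and 1 was higher in replicate 2, a direction called in 25.8%. The count called here is near the background, and at high counts almost any gene passes: of the 75 tested genes whose mean reached 1000 CPM, which include all 3 that were called, 70 (93.3%) were. The median absolute log2 ratio over all tested genes was 0.29. This median was larger than the difference of Mir145a and smaller than that of Mir143. For Mir214 the difference was matched or exceeded by 51 of the 426 genes, Mir214 included. Among the 75 genes of high level, 4 were higher in replicate 1 by at least as much, again with Mir214 counted. With scaling by total counts in place of TMM, all ratios rise by 0.10, the share of called genes that are higher in replicate 2 is 61.7% in place of 46.0%, and the 3 genes keep their directions and their calls.

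**Figure D3:**
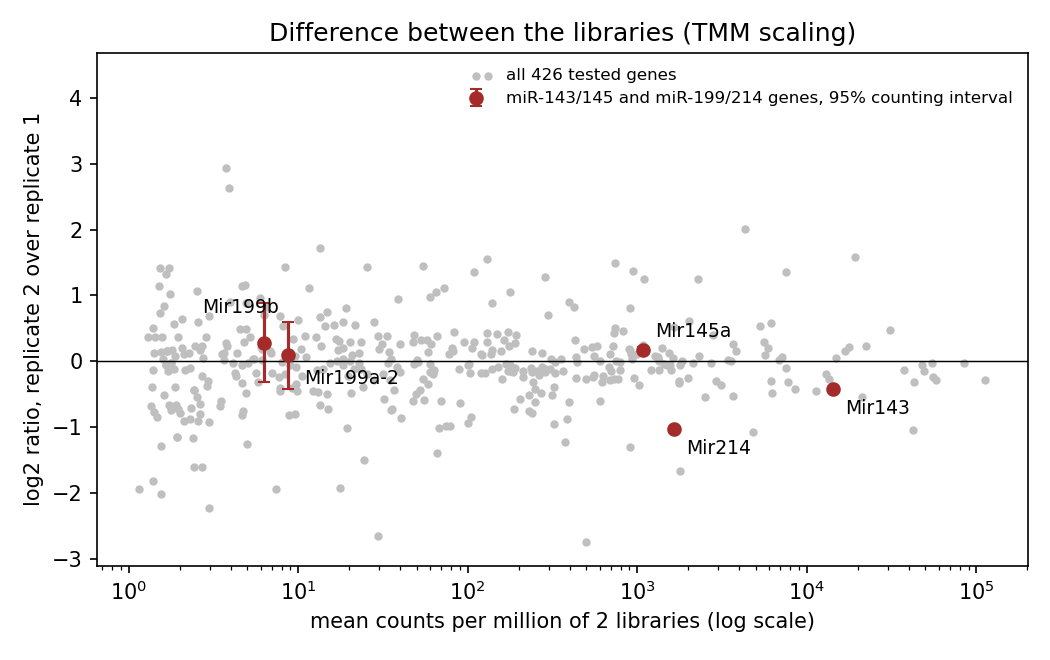
Log2 ratio of replicate 2 over replicate 1 after TMM scaling against mean CPM (log scale), with all 426 tested genes in grey and the 5 tested genes in red with 95% counting intervals. Mir214 at -1.04 and Mir143 at -0.41 lie below 0 and Mir145a at 0.17 lies above, while the intervals of Mir199a-2 and Mir199b cross 0.

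Ratios of genes within a library need no scaling. Mir143 had 16.1 times the counts of Mir145a in replicate 1 (95% counting interval 15.8 to 16.5) and 10.7 times in replicate 2 (10.5 to 11.0), so the partners of 1 locus did not keep a fixed ratio. Between the libraries this ratio differed by 1.50-fold, far beyond counting error. Per base of hairpin, 63 for Mir143 and 70 for Mir145a, the ratios were 17.9 and 11.9. Copies of the products of these genes were not looked for, so reads with several alignments may be missing from either count. At the other locus, Mir214 had 267 times the counts of Mir199a-2 in replicate 1 (213 to 340) and 122 times in replicate 2 (94.8 to 160). That ratio sets a gene with no copies in the table against reads of Mir199a-2 placed at 1 locus. It differed by 2.19-fold between the libraries, of which Mir214 differed beyond counting error and Mir199a-2 did not. Mir143 had 7.28 times the counts of Mir214 in replicate 1 (7.18 to 7.39) and 11.2 times in replicate 2 (11.0 to 11.5).

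**Figure D4:**
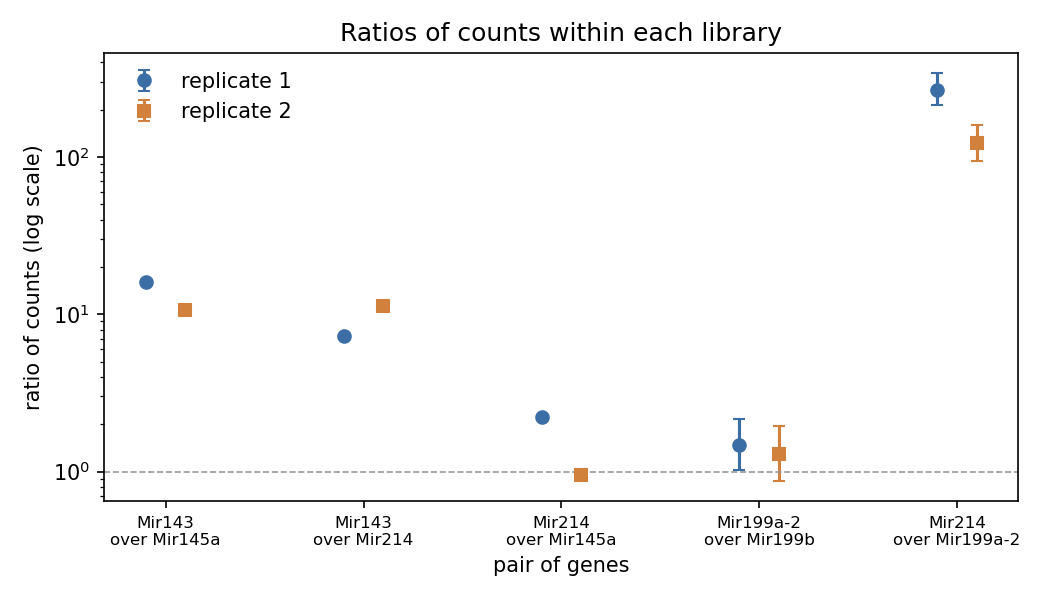
Ratio of the counts of gene pairs within each library (log scale), with replicate 1 as circles, replicate 2 as squares, 95% counting intervals as bars and a dashed line at 1. Mir143 over Mir145a is 16.1 in replicate 1 and 10.7 in replicate 2, Mir214 over Mir199a-2 is 267 and 122, and Mir214 over Mir145a lies on either side of 1.

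A set of neighbouring genes, put together after the values above were seen, gives the scale of such shifts. There were 116 pairs of tested genes that follow each other on the same strand within 10000 bases. The median absolute difference between the log2 ratios of 2 neighbours was 0.44. The difference between Mir143 and Mir145a was 0.59, and 46 of the 116 pairs, this pair among them, differed by as much or more. Among the 51 pairs in which both genes had a mean of at least 100 CPM the median was 0.43, and 20 differed by as much or more. Among the 11 pairs in which both genes had a mean of at least 1000 CPM the median was 0.24 and the pair of Mir143 and Mir145a had the largest difference. The place of this pair therefore depends on the level asked for. Of these 11 pairs, 4, this one included, were called in opposite directions, against 17 of the 51 pairs and 29 of all 116. Opposite calls are thus not particular to this pair. The difference between Mir214 and Mir199a-2 was 1.13. Pairs from 1 cluster share genes and are not independent.

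MicroRNAs studied beside miR-143 and miR-145 in the switch of smooth muscle between contraction and growth differed between the libraries in both directions. All 15 genes of that list were found in the tables and 9 were tested. Of these, 6 were higher in replicate 2, 3 were higher in replicate 1 and none failed to pass, where 25.8% of all tested genes were called toward replicate 2 and 30.3% toward replicate 1. Most of the 9 have a mean of at least 100 CPM, and of the 184 tested genes at that level 158 (85.9%) were called. That all 9 passed is thus little beyond the share at such depth. The median log2 ratio was 1.14 against -0.03 over all tested genes. The list was led by Mir21a, known from growing smooth muscle and from fibrosis, at 9066 and 29277 CPM in replicates 1 and 2. Mir21a was higher in replicate 2, as Mir145a was, while Mir143 and Mir214 were higher in replicate 1. Mir221, which with Mir222 is tied to smooth muscle growth, had 1352 and 1322 CPM (log2 ratio -0.14). Mir222 had 515 and 237 CPM, with a larger difference in the same direction (log2 ratio -1.22). Mir146, a microRNA of inflammatory signalling, had 1247 and 1396 CPM (log2 ratio 0.06). The median is the ratio of Mir26a-1 alone, at 25 and 43 counts, and Mir24-1, Mir24-2, Mir26a-1 and Mir26a-2 each have 1 product that also stands at another gene, so their counts are uncertain. Mir1a-1, Mir1a-2, Mir133a-1 and Mir133a-2, from muscle, had 0 counts in both libraries, but each has a like-named second locus. The search for copies did not settle whether they share products: Mir1a-1 had no copy in the table, and the other 3 were not among the genes matched to it.

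The list for extracellular matrix and fibrosis had 16 genes, all of them tested. Of these, 5 were higher in replicate 1, 4 were higher in replicate 2 and 7 did not pass, with a median of -0.06. The 9 called of 16 are close to the 56.1% called over all tested genes, so the count shows nothing beyond the background, and the values of single genes below are descriptions. Mir29a, known for repressing collagen genes, had 6557 and 5726 CPM and was higher in replicate 1 (log2 ratio -0.30, interval -0.32 to -0.28). Its family member Mir29c was also higher there (-0.13), and Mir29b-1 and Mir29b-2 did not pass (-0.14 and 0.19). Mir10b, from the Hoxd cluster, had 15439 and 18397 CPM, higher in replicate 2 (0.15).

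The summed levels of markers of other cell types also differed between the libraries, by list. The endothelial pair Mir126a and Mir126b, of the cells that mural cells wrap, summed to 61679 CPM in replicate 1 and 54325 CPM in replicate 2. Almost all of this is Mir126a, as Mir126b had 17 and 3 counts. The sum was higher in the library where Mir143 was higher, while Mir145a was higher in the other. Mir143 had 0.256 times the counts of Mir126a in replicate 1 and 0.234 times in replicate 2, a narrower range than that of Mir143 over Mir145a. The log2 ratio of Mir126a was -0.29, near in size to the median absolute log2 ratio of 0.29 over all tested genes. Like Mir126a, 30.3% of tested genes were called toward replicate 1, so this narrower range is not particular to an endothelial gene. The 3 erythroid genes summed to 144 and 295 CPM, and 2 of them were called, both toward replicate 2. Of all tested genes 56.1% were called, 25.8% toward replicate 2 and 30.3% toward replicate 1. Against those shares, counts of calls in lists this short are descriptions only. The 6 leukocyte genes summed to 3237 and 3559 CPM, but 3 of them were higher in each library. The 5 brown fat genes summed to 2901 and 3253 CPM, with 2 higher in each library and 1 that did not pass, so neither of these lists moved in 1 direction. The 4 neuroendocrine genes summed to 54062 and 51805 CPM, with 3 higher in replicate 1, none in replicate 2 and 1 that did not pass. The 7 epithelial genes summed to 728 and 741 CPM, the 4 kidney genes to 112 and 118 CPM, and the liver gene Mir122 had 128 and 71.5 CPM. The 9 striated muscle genes summed to 1.31 and 1.67 CPM, with 6 at 0 in both libraries, including both Mir1a and both Mir133a genes. The part of these shifts in the differences of Mir143, Mir145a and Mir214 was not tested.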

How the data were processed

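The authors deposited raw read counts per microRNA gene for each library, on mm10 with GENCODE M21 per the text files beside the tables. Adapter trimming is named in the labels' protocols. Aligner and counter: not given in the sources used here. The tables hold either-strand, gene-strand and opposite-strand columns, a reading from their layout and totals. The gene-strand column was used. Rows naming no gene, which hold 51.2% and 54.6% of the reads, were left out of library sizes.

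Genes with at least 20 counts over both libraries were tested, over the whole table, with an exact two-sided binomial test against the ratio of TMM-scaled totals (edgeR 4.0.16 in R 4.3.3), with Benjamini-Hochberg adjustment at 0.05. Log2 ratios have 0.5 counts added. Intervals are exact (Clopper-Pearson, 95%; scipy 1.17.1) and cover counting error only, since no molecular identifiers are stated. The test was also run on simulated counts. These held counting error alone, so they do not bear on the spread between libraries. DESeq2 1.42.0 size factors, total counts, the either-strand column and no count minimum were alternatives.

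The 6 genes, the lists and the tests were chosen with earlier results of these data known. Genes named are these 6, those sharing a product or seed, overlapping genes, neighbours in rank and on the chromosome, and the leading 3 of each of the smooth muscle and matrix lists. Mir29c, Mir29b-1, Mir29b-2, Mir26a-1, Mirlet7c-2 and the muscle genes at 0 were named after their values were seen. Of the other marker lists only sums, with counts of calls for some, are given, with Mir126a, Mir126b and Mir122 named.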

Additional observations from a re-analysis of the deposited data

How the results depend on the processing

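Under scaling by total counts, DESeq2 size factors, counts on either strand and no count minimum, the same 3 genes, Mir143, Mir145a and Mir214, were called in the same directions, and Mir199a-2 and Mir199b did not pass in any of them. The number of all genes called ran from 217 to 243, against 239. Leaving out 1 library gave 10.7 to 16.1 for the ratio of Mir143 to Mir145a, 122 to 267 for Mir214 to Mir199a-2 and 1.50% to 1.89% for the summed share. With all reads of a library as the denominator each mean CPM fell by construction, for Mir143 from 14230 to 6727. Counts on either strand raised every mean CPM, as the total of that column is smaller (8262548 against 9137907 in replicate 1). For Mir199a-2, at unchanged counts of 74 and 61, the mean went from 8.69 to 9.56 CPM, by more than 1 SD. The other 5 means moved by less than 1 SD. No paired analysis was possible because there is 1 group. Depth limits Mir199a-1, Mir199a-2 and Mir199b, whose counts run from 1 to 74.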

Other observations

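Mir145b, which shares its name with Mir145a and lies elsewhere on the same chromosome, had 7 and 5 counts in replicates 1 and 2, against 8931 and 7785 for Mir145a. Whether Mir145a and Mir145b share a product or a seed was not looked for. Gm23363, a microRNA gene that lies 116 bases from Mir199b on the same strand, had 5 and 1 counts. In antisense orientation Mir214 had 2 counts in replicate 1 and 0 in replicate 2, and the other 5 genes had 0 in both libraries.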
